A study of Mus musculus with 8 samples.

Results

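The slow-twitch muscle fibre genes are 6 genes of the contractile apparatus, Myh7, Tnnt1, Tnnc1, Tnni1, Myl2 and Myl3, chosen as the noncontrol probes that carry these gene names on the array. Each gene had 1 probe, so that 6 of the 55681 noncontrol probes belong to the group, and all 6 genes stood among the 23830 genes tested. They were selected on their log2 signals array by array, after earlier results of these same data had shown skeletal muscle transcripts to vary strongly between individual arteries. Their levels by array, their spread and their likeness to each other are therefore given as a description, with no test. Gene expression had been measured in injured carotid arteries, in 4 miR-126-/-/ApoE-/- mice and 4 miR-126+/+/ApoE-/- mice with 1 array per mouse. All mice were female, 6 weeks old per the labels, of mixed genetic background, on a western-type diet, and lacked ApoE, the gene of apolipoprotein E. In both genotypes the carotid had been injured with a wire, and RNA was taken 14 days later. The labels do not say how the miR-126 allele was made or in which cells it acts.

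Skeletal muscle is built of fibre types that differ in the isoforms of their sarcomere proteins. Slow-twitch fibres contract slowly, resist fatigue and use oxidative metabolism, and they share several of their contractile isoforms with the ventricle of the heart. Fast-twitch fibres use other members of the same gene families. In the sarcomere, myosin heavy chains with their light chains form the motor of the thick filament, and the troponin complex on the thin filament makes contraction depend on calcium. Arterial smooth muscle contracts through other myosins and has no troponin complex.

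The smooth muscle actin gene Acta2 lay at 7.19 to 7.94 in miR-126-/- arteries and 7.34 to 7.63 in miR-126+/+ arteries on the scale used throughout, log2 of the signal minus log2 of the 75th percentile of its array. Like the other 6 smooth muscle genes listed and all 8 endothelial genes listed, it was well above background on all 8 arrays. All 8 arrays lay on 1 slide, with the miR-126-/- arrays in slide row 2 and the miR-126+/+ arrays in slide row 1, and the effect of the row cannot be told apart from that of genotype. On array miR-126-/- 4, 252 spots were dimmer than on all other arrays by 2 log2 units or more, and 0 of them belonged to the slow-twitch genes or to any other gene listed here. Array miR-126-/- 1 stands apart from the other 7 for the slow-twitch genes, and their genotype differences are also given without it. The genotype counts of the other gene lists are given with all 8 arrays only.

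The probes are 60 bases long. Those of Tnnc1 and Tnni1 are shown because they lie across splice junctions, over 417 and 876 bases of the genome, so that they match spliced transcripts. The Tnnc1 probe lies at chr14:32023360-32023776 and the Tnni1 probe at chr1:137705328-137706203 (mm9, plus strand).
Tnnc1: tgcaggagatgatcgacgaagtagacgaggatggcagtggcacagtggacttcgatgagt
Tnni1: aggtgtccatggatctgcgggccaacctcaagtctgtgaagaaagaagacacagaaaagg
The other probes each lie in an unbroken stretch. The Myh7 probe is at chr14:55589581-55589640 and the Tnnt1 probe at chr7:4456265-4456324 (mm9, minus strand). The Myl2 probe is at chr5:122556732-122556791 and the Myl3 probe at chr9:110672238-110672297 (mm9, plus strand).

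On array miR-126-/- 1 all 6 slow-twitch genes had their highest value, an excess of between 3.97-fold (Myh7) and 18.5-fold (Tnni1) over the median of the 6 arrays other than this one and miR-126+/+ 2. The next highest array was miR-126+/+ 2 for 4 genes and miR-126+/+ 3 for Tnnt1 and Myl3. Without miR-126-/- 1 the values of the genotypes overlapped for all 6 genes. In bulk tissue, fewer cells of a type and less RNA per cell cannot be told apart.

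Myh7 encodes the slow, beta-type myosin heavy chain. Its log2 signal was -1.24, -3.18, -2.95 and -3.28 in miR-126-/- arteries 1 to 4, against -3.47, -2.90, -3.00 and -3.32 in the miR-126+/+ mice 1 to 4. Only miR-126-/- 1 stood clear, 3.16-fold above the next array, and the other 3 miR-126-/- values lay within the miR-126+/+ range. Myl2 encodes the regulatory light chain of slow and ventricular myosin. It gave -0.15, -3.33, -3.82 and -3.86 in the miR-126-/- mice, against -3.65, -2.88, -3.22 and -4.01 in the miR-126+/+ mice. Again only miR-126-/- 1 stood clear, 6.66-fold above miR-126+/+ 2. Myl3 encodes the essential light chain of the same myosin. It gave 0.17, -3.81, -3.98 and -3.66 in the miR-126-/- mice, against -3.98, -3.44, -3.29 and -4.31 in the miR-126+/+ mice. Its gap to the next array was 11.03-fold, and the remaining 3 miR-126-/- values lay inside the miR-126+/+ range.

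Tnnt1 encodes slow skeletal troponin T, the subunit that ties the complex to tropomyosin. Its log2 signal was 3.88, -0.28, 0.25 and 0.42 in the miR-126-/- mice, against 0.19, 1.07, 1.30 and -0.61 in the miR-126+/+ mice. The array miR-126-/- 1 lay 5.95-fold above miR-126+/+ 3. Tnnc1 encodes troponin C of slow and heart muscle, the subunit that binds calcium. It gave -0.85, -3.76, -4.01 and -3.57 in the miR-126-/- mice, against -3.88, -3.08, -3.45 and -4.31 in the miR-126+/+ mice. The gap to the next array was 4.68-fold. Tnni1 encodes slow skeletal troponin I, the inhibitory subunit. It gave 1.38, -2.72, -2.84 and -3.04 in the miR-126-/- mice, against -2.82, -1.57, -1.96 and -3.22 in the miR-126+/+ mice. Here miR-126-/- 1 lay 7.71-fold above miR-126+/+ 2, while the other 3 miR-126-/- values lay below 2 of the 4 miR-126+/+ values.

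**Figure D1:**
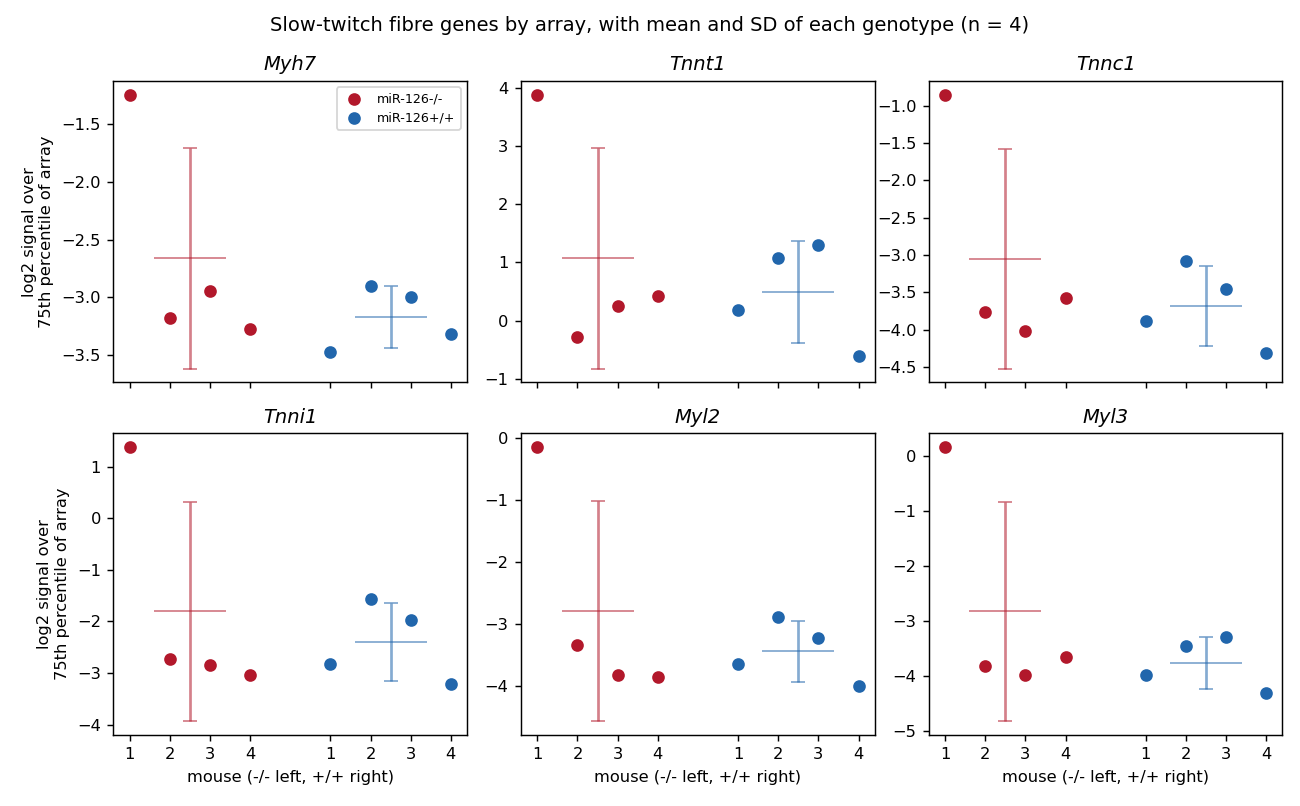
Log2 signal of each slow-twitch gene (vertical axis, relative to the 75th percentile of the array) in the 4 miR-126-/- and the 4 miR-126+/+ arteries, with the mean and SD of each genotype as a bar. The point of miR-126-/- 1 is the highest in all 6 panels, and the other 7 points overlap between the genotypes.

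All 6 probes were well above background on all 8 arrays, but for most genes not by much. On the arrays other than miR-126-/- 1, the dimmest slow-twitch probe of each array had a processed signal of 37.1 to 64.9 intensity units. The lowest signal called well above background on these arrays was 18.1 to 27.7 units, and the 95th percentile of the negative control spots was 5.73 to 12.2 units. On miR-126-/- 1 the dimmest was Myh7 at 301.6 units, and Tnnt1 reached 10472.1 units. With background corrected by normexp in place of the scanner's own correction, the excess on miR-126-/- 1 was smaller. It was then 2.57-fold in place of 3.97-fold for Myh7, 4.15-fold in place of 7.82-fold for Tnnc1 and 5.82-fold in place of 11.99-fold for Myl2. For Myl3 it was 7.71-fold in place of 16.7-fold, for Tnni1 11.2-fold in place of 18.5-fold, and for Tnnt1, the brightest, 11.4-fold in place of 12.6-fold. The array with the highest value was miR-126-/- 1 for all 6 genes under each of the 5 scalings and background corrections tried.

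Over all 23830 genes tested, 0.0965% stood at least 2 log2 units above every other array on miR-126-/- 1, which is 23 genes, and 5 of them were slow-twitch genes (all but Myh7, which stood 1.66 units above). Only 3.86% of the genes tested had their highest value on this array. These shares describe the array from which the slow-twitch genes were chosen and are no test of them.

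The design asks whether loss of miR-126 alters transcripts of the injured artery, and for the slow-twitch genes no genotype difference passed. All 6 differences in the fit, given as miR-126-/- minus miR-126+/+ in log2 units, were above 0, as were 51.7% of those of all genes tested, with a median of 0.61 against 0.0076 over all genes tested. The mean log2 signal of Myl3 was -2.82 ± 1.998 in miR-126-/- arteries and -3.76 ± 0.47 in miR-126+/+ arteries (SD, n = 4 each), and its difference of 0.94 ± 0.89 (SE) was the largest of the 6. Myl2 differed by 0.65 ± 0.80, Tnnc1 by 0.63 ± 0.68, Tnni1 by 0.59 ± 0.98, Tnnt1 by 0.58 ± 0.91 and Myh7 by 0.51 ± 0.44. In limma's fit across all genes, with Benjamini-Hochberg adjustment over all of them, the adjusted p ran from 0.779 (Myh7) to 0.902 (Tnni1). The fit called 0 of the 6 genes and 0.0965% of all genes tested, which here too is 23 genes; 0 of the 6 and 0.0546% of all genes were called higher in miR-126-/- arteries. At an unadjusted p under 0.05 it found 0 of the 6 and 10.2% of all genes. The genotypes overlapped for all 6 genes, and did not overlap for 6.29% of all genes tested.

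These differences rested on miR-126-/- 1. Without it, Tnni1 differed by -0.47 ± 0.39, Tnnt1 by -0.36 ± 0.47, Myl2 by -0.23 ± 0.29, Tnnc1 by -0.10 ± 0.29, Myl3 by -0.06 ± 0.26 and Myh7 by 0.03 ± 0.17 (log2, SE, n = 3 against 4). The median then was -0.17, and the adjusted p ran from 0.768 to 0.970. The SD over the miR-126-/- arteries changed with it: for Tnni1 it was 2.13 over 4 arteries and 0.16 over the 3 without miR-126-/- 1, against 0.76 over the 4 miR-126+/+ arteries.

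**Figure D2:**
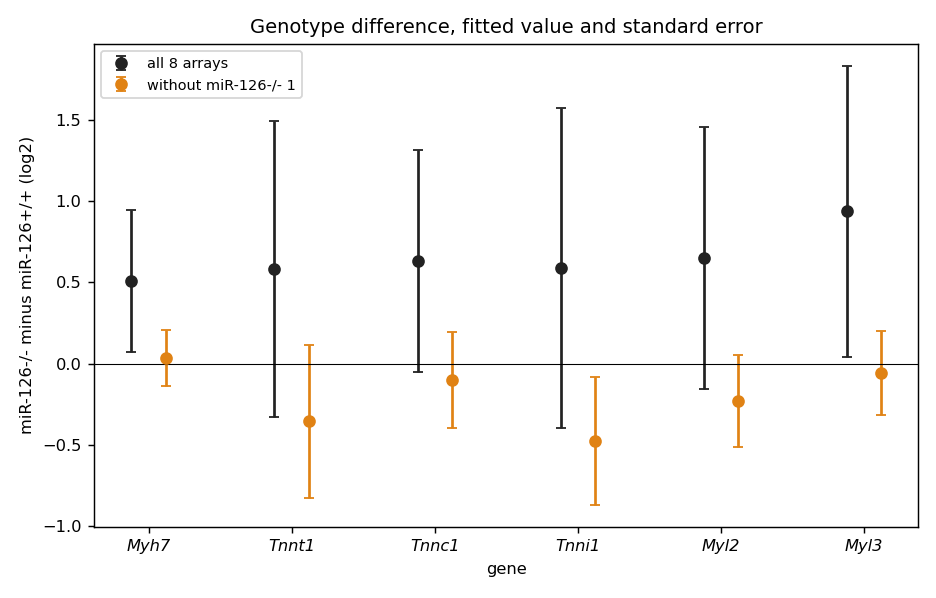
Fitted genotype difference (miR-126-/- minus miR-126+/+, log2) and its standard error for each slow-twitch gene, with all 8 arrays and without miR-126-/- 1. With all arrays the 6 values lie between 0.51 and 0.94, and without miR-126-/- 1 they lie between -0.47 and 0.03.

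Fast-twitch genes were high on 2 arrays. Their list mean, with each of the 13 genes tested centred over the 8 arrays, was high on both miR-126-/- 1 (2.67) and miR-126+/+ 2 (2.84), whereas that of the slow-twitch genes was 2.87 and 0.20. On miR-126+/+ 2 the fast-twitch genes had a median excess of 15.6-fold over the median of the 6 remaining arrays, and the slow-twitch genes one of 1.74-fold. On miR-126-/- 1 the median excess was 15.6-fold for fast-twitch and 12.3-fold for slow-twitch genes. All 6 slow-twitch genes, but 5 of 13 fast-twitch genes and 50.5% of all genes tested, were higher on miR-126-/- 1 than on miR-126+/+ 2. This separates single arrays and not groups of mice, so it was not tested.

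Among fast-twitch genes, Myh4 (the fast IIb myosin heavy chain) stood at 4.33 on miR-126-/- 1 and at 4.08 on miR-126+/+ 2. The fast troponin C gene Tnnc2 had 5.31 and 5.47, and the fast troponin I gene Tnni2 had 4.62 and 5.12. The heavy chain gene of the fatigue-resistant fast IIa fibre, Myh2, was -0.16 on miR-126-/- 1 and 2.35 on miR-126+/+ 2, a reverse order to that of Myh7. The order of the slow-twitch genes was shared by 5 of the 13 fast-twitch genes tested. Among these were the fast light chain gene Myl1 (5.62 and 4.40) and Actn3 (2.14 and 0.87). The mean of the slow-twitch genes minus that of the fast-twitch genes was 0.20, -0.98, 0.98 and 0.51 in miR-126-/- arteries 1 to 4, against 1.28, -2.64, -0.23 and 0.90 in the miR-126+/+ mice 1 to 4. It was lowest on miR-126+/+ 2, and the genotypes overlapped. Of 14 fast-twitch genes listed, Mylpf did not pass the filter on dim probes. Of the other 13, 0 passed for genotype, and 11 had differences above 0 (median 0.27), against 51.7% of all genes tested. These differences include miR-126-/- 1 and miR-126+/+ 2, where fast-twitch genes were high, and were not recomputed without either array.

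**Figure D3:**
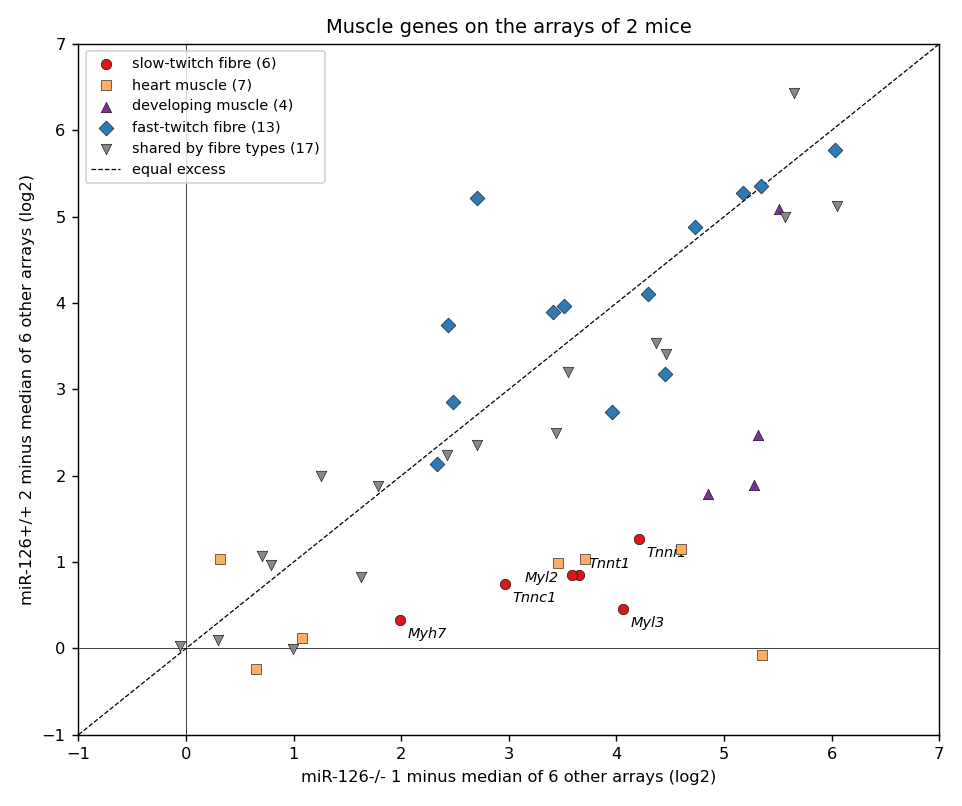
Excess of muscle genes on miR-126-/- 1 (horizontal axis) and on miR-126+/+ 2 (vertical axis) over the median of the 6 other arrays, in log2 units, with 1 point per gene. Fast-twitch genes lie on both sides of the dashed line of equal excess, and the 6 slow-twitch genes lie below it, with values of 1.99 to 4.21 on miR-126-/- 1 and 0.33 to 1.26 on miR-126+/+ 2.

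Genes known from heart muscle were likewise high on miR-126-/- 1. Of 9 listed, 7 were tested, and 6 of these had their highest value on miR-126-/- 1. The alpha-type myosin heavy chain gene Myh6, the neighbour of Myh7 on chromosome 14, had a log2 signal of 1.41, -4.67, -4.02 and -3.24 in the miR-126-/- mice, against -3.87, -4.02, -3.02 and -4.26 in the miR-126+/+ mice. It was 40.8-fold higher on miR-126-/- 1 than the median of the 6 other arrays, and 0.952-fold on miR-126+/+ 2. Myosin heavy chain genes are close copies of each other and cross-hybridisation of the Myh6 and Myh7 probes was not tested. A second Myh6 probe was well above background on 1 array only and did not show this excess. It gave -6.17 on miR-126-/- 1, and its highest value was -3.38 on miR-126+/+ 1. The heart actin gene Actc1 was 24.2-fold higher, the heart troponin T gene Tnnt2 13.1-fold and the atrial and embryonic light chain gene Myl4 10.96-fold on miR-126-/- 1. On miR-126+/+ 2 these 3 were 2.23-fold, 2.04-fold and 1.99-fold higher. The adult heart troponin I gene Tnni3 gave -1.70 on miR-126-/- 1 and at most -2.32 on every other array. Ryr2, the calcium release channel of heart muscle, was the exception, with its highest value on miR-126+/+ 2. The atrial light chain gene Myl7 and the natriuretic peptide gene Nppa did not pass the filter on dim probes.

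Genes of developing or regenerating muscle had their highest values there too. The embryonic myosin heavy chain gene Myh3 gave 3.24, -1.56, -1.62 and -2.47 in the miR-126-/- mice, against -3.16, -0.15, -0.61 and -6.30 in the miR-126+/+ mice, where it was not well above background on miR-126+/+ 4. Its second probe gave 3.05 on miR-126-/- 1 and -0.46 on miR-126+/+ 2. The acetylcholine receptor gene Chrna1 gave 1.49 on miR-126-/- 1 and -1.57 on miR-126+/+ 2. The perinatal myosin heavy chain gene Myh8, by contrast, was high on both, at 5.80 and 5.37. The myogenic factor gene Myog was well above background on 5 of 8 arrays and gave 0.72 on miR-126-/- 1 and -2.12 on miR-126+/+ 2. Of 9 listed genes these 4 were tested, and 0 passed for genotype. Myod1, Myf5, Myf6, Pax7 and Chrng did not pass the filter on dim probes.

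Most sarcomere genes that both fibre types use were high on both arrays. The myoglobin gene Mb, which encodes an oxygen store of oxidative fibres, gave 3.98 on miR-126-/- 1 and 3.06 on miR-126+/+ 2, against -3.39 to 0.10 on the other 6 arrays. The skeletal actin gene Acta1 gave 4.944 and 4.597, the alpha-actinin gene Actn2 0.10 and -0.25, and the skeletal calcium release channel gene Ryr1 0.59 and 0.40. Of 17 tested, 10 were highest on miR-126-/- 1 and 5 on miR-126+/+ 2, with median excesses of 5.38-fold and 4.73-fold. All 6 muscle lists together held 57 genes tested of 71 listed, and limma called 0 of them.

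Other genes linked to slow fibres varied among themselves. Of 13 listed, 10 were tested, and 0 passed for genotype. Of the 10, 8 had differences above 0 (median 0.35), against 51.7% of all genes tested. These differences too include miR-126-/- 1 and were not recomputed without it. Myom3, an M-band protein gene, gave 1.45 on miR-126-/- 1 and at most -0.13 elsewhere, and Myoz2, which encodes a calcineurin-binding protein of the Z-disc, gave -0.52 against at most -1.51 elsewhere. Sln, the gene of the calcium pump regulator sarcolipin, gave 3.40 on miR-126-/- 1 and 0.05 and 0.20 on miR-126+/+ 2 and 3, and was well above background on 6 of 8 arrays. Mybpc1, the slow myosin-binding protein C gene, was as high on one array as on the other, with 1.22 on miR-126-/- 1 and 1.27 on miR-126+/+ 2. The calcium pump gene Atp2a2 and the tropomyosin gene Tpm3 are expressed by many cell types. Between genotypes they differed by 0.08 ± 0.08 and -0.12 ± 0.10. Their excesses on miR-126-/- 1 were 0.0026 and -0.19 log2 units. A second Atp2a2 probe differed by -0.18 between genotypes, with an excess of -0.33 log2 units on miR-126-/- 1.

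As a group, regulators of the slow-fibre programme were not higher on either array. Of 20 listed, 19 were tested, and their median excess was 1.02-fold on miR-126-/- 1 and 0.941-fold on miR-126+/+ 2. These include the calcineurin subunit genes Ppp3ca and Ppp3cb, whose excesses on miR-126-/- 1 were -0.04 and 0.02 log2 units, and the MEF2 factor gene Mef2c with -0.00055. Single regulators differed more, and their excesses on this array ran from -0.45 (Mef2a) to 1.02 (Ppargc1b) log2 units. The list mean of the 19 was 0.12, 0.17, 0.05 and 0.06 in miR-126-/- arteries 1 to 4. In miR-126+/+ arteries 1 to 4 it was -0.13, -0.07, -0.18 and -0.02. These small means did not overlap between genotypes, which was not tested. For genotype, 11 of the 19 had differences above 0 (median 0.02), against 51.7% of all genes tested, and 8 below 0. The genotypes did not overlap for 1 of the 19, against 6.29% of all genes tested. After adjustment over all genes tested, limma called 0. At an unadjusted p under 0.05 it found 4 of the 19, against 10.2% of all genes tested. These were the nuclear receptor gene Ppara (1.51 ± 0.36, adjusted p = 0.218), the coactivator genes Ppargc1b (1.30 ± 0.38, adjusted p = 0.292) and Ppargc1a (0.57 ± 0.23, adjusted p = 0.447), and Prox1 (-0.64 ± 0.23, adjusted p = 0.396). Prox1, a homeobox factor also of lymphatic endothelium, had -3.30, -3.00, -3.75 and -3.28 in the miR-126-/- mice, against -2.59, -3.08, -2.93 and -2.18 in the miR-126+/+ mice, with overlap through miR-126+/+ 2. The adipocyte markers differed in the same direction as Ppara and both coactivator genes. Of the 10 listed, 10 were higher in miR-126-/- arteries (median 1.33), against 51.7% of all genes tested. At an unadjusted p under 0.05 limma found 9, against 10.2%. After adjustment it called 0, against 0.0965%. The adipocyte list mean was 0.10, 0.61, 0.73 and 1.06 in miR-126-/- arteries 1 to 4. In miR-126+/+ arteries 1 to 4 it was -1.13, -0.42, -1.16 and 0.21. These means overlapped between genotypes, through miR-126-/- 1 and miR-126+/+ 4. The part of adipocytes in the differences of these regulators was not tested.

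None of the 6 lists of other tissue markers had its highest mean on miR-126-/- 1. The list mean of 7 smooth muscle genes was -0.26, 0.58, -0.02 and 0.31 in the miR-126-/- mice, against 0.02, -0.47, -0.16 and 0.0018 in the miR-126+/+ mice, so that it was lowest on miR-126+/+ 2 and miR-126-/- 1. The 8 Schwann cell genes had 0.17 on miR-126-/- 1 and 0.57 on miR-126+/+ 2, and the 8 endothelial genes had -0.10 and -0.29. Of the 7 thyroid genes 2 were tested, Tg and Tshr, and their mean on miR-126-/- 1 was -0.20. That of the 5 macrophage genes was -0.27 there, the lowest of the 8 arrays. The part of these tissues in the slow-twitch values was not tested.

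**Figure D4:**
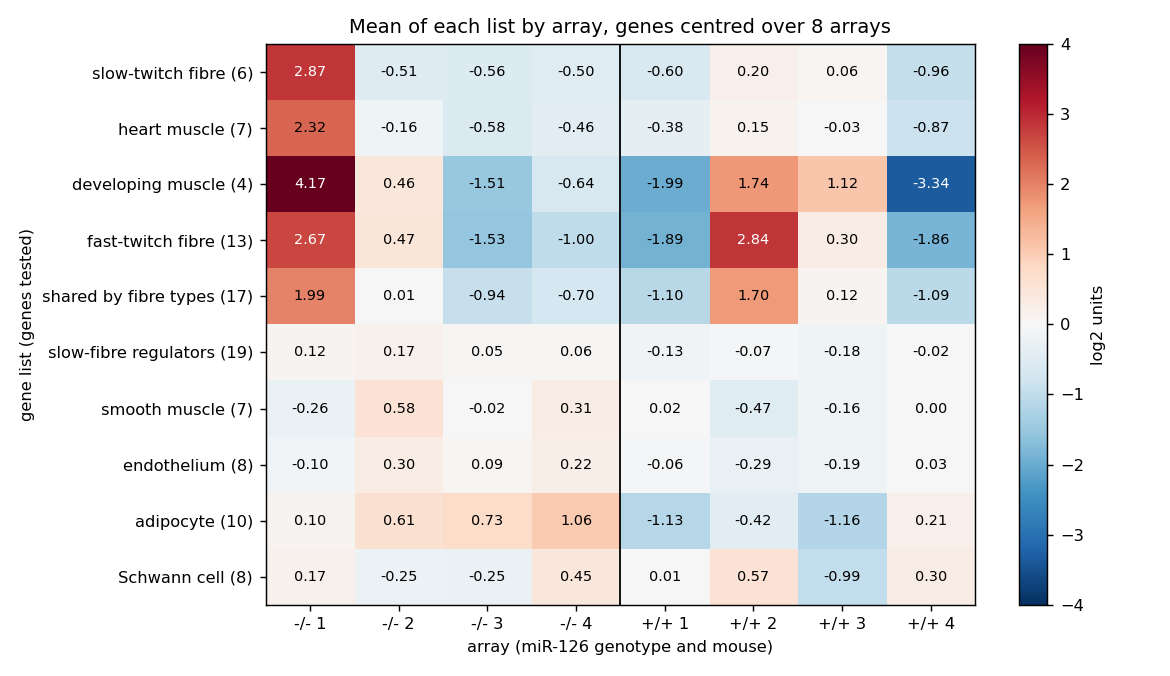
Mean of each gene list on each array (columns, miR-126-/- left and miR-126+/+ right), in log2 units with each gene centred over the 8 arrays. Slow-twitch, heart and developing muscle genes are highest on miR-126-/- 1 (2.87, 2.32 and 4.17), fast-twitch genes are high on miR-126-/- 1 and miR-126+/+ 2 (2.67 and 2.84), and the slow-fibre regulators stay between -0.18 and 0.17.

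The slow-twitch genes varied together, and less so when miR-126-/- 1 was left out. Over all 8 arrays, Pearson's r between pairs of the 6 genes ran from 0.934 to 0.991 (15 pairs). Over the 7 arrays without miR-126-/- 1 it ran from 0.530 to 0.941 with a median of 0.819. Over the 6 arrays without miR-126+/+ 2 as well it ran from 0.263 to 0.962 with a median of 0.699. The arrays share 1 slide and the genes share each array's scaling, and the values are a description over few mice. Outside miR-126-/- 1 the mean of the 6 genes was highest on miR-126+/+ 2 (0.20) and miR-126+/+ 3 (0.06) and lowest on miR-126+/+ 4 (-0.96). Between them lay miR-126-/- 4 (-0.50), miR-126-/- 2 (-0.51), miR-126-/- 3 (-0.56) and miR-126+/+ 1 (-0.60), whose means lay closer together than the SD over the 6 genes on any of these arrays but miR-126+/+ 1.

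The 12 genes most like the slow-twitch mean over the 8 arrays, among 15005 genes with a symbol, had r from 0.938 to 0.982. They were led by Myl4 (0.982), Mybph, a myosin-binding protein gene (0.977), Tnnt2 (0.977) and Adprhl1, an ADP-ribosylhydrolase-like gene of heart (0.965). The next were Mymk, which encodes the myoblast fusion protein myomaker (0.964), Cavin4, a muscle caveola gene (0.961), the homeobox gene Lbx1 (0.957), the intermediate filament gene Des (0.952) and Myh6 (0.951). Cav3, the muscle caveolin gene (0.943), Bst2, an antiviral membrane protein gene (0.939), and Lmod3, a thin filament gene (0.938), completed them. Without miR-126-/- 1 and miR-126+/+ 2 their r lay between 0.416 (Bst2) and 0.912 (Cavin4 and Tnnt2). Mymk had an excess of 7.74-fold on miR-126-/- 1 and 1.22-fold on miR-126+/+ 2, and Cavin4 one of 20.2-fold and 2.51-fold.

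The 250 bases before the start sites of the slow-twitch genes were searched for motifs of muscle promoters, on both strands. All 6 genes matched the RefSeq promoter table (GRCm38.p6), and where a gene had several windows the most upstream was taken. Myh7, Tnni1 and Myl2 had 2 windows each, and which of them serves the muscle transcript was not settled. The E-box CANNTG, bound by myogenic factors, was in 6 of 6 windows and in 66.2% of all 32851 windows of this length. The MCAT element CATTCC, bound by TEAD factors, was in 3 of 6 (Myh7, Tnnc1 and Myl3) and in 12.6% of all windows. The MEF2 motif, searched as a pattern of 10 bases, was in 0 of 6 and in 2.92% of all windows. Sites that depart from that pattern were not counted. The CArG box, bound by serum response factor, was in 1 of 6 (Myl3) and in 1.47%. TATAAA was in 1 of 6 (Tnnt1, 30 bases before the start) and in 12.4%. The 3 windows that hold CATTCC are shown, with the E-box, the MCAT element and the CArG box in capitals on either strand.
Myh7, chr14:54994627-54994876, minus strand: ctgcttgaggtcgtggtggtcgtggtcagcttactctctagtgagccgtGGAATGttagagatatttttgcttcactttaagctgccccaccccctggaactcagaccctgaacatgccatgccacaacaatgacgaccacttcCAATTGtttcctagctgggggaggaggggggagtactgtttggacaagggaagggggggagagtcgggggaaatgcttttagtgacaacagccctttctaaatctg
Tnnc1, chr14:31208062-31208311, plus strand: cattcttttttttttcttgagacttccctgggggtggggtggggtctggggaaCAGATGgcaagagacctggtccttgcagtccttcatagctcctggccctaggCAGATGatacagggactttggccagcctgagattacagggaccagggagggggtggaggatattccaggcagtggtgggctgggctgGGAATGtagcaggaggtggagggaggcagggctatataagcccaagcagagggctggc
Myl3, chr9:110763428-110763677, plus strand: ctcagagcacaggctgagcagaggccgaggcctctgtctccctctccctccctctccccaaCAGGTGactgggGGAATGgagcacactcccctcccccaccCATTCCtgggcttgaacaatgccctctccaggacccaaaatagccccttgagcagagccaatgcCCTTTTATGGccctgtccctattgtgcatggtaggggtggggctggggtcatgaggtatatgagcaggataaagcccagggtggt
CATTCC begins 201 bases before the start in Myh7, 58 in Tnnc1, and 177 and 149 in Myl3. With both windows of these genes searched, a setting added after the data were seen, MEF2 was in 0 of the 6 genes and the E-box in every window. CATTCC was absent from the other window of Myh7, and TATAAA was present in the other window of Myl2. A match is a description of the letters and shows no binding.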

How the data were processed

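Per the labels' protocols, 100 ng of total RNA per artery was marked with the dye Cy3 before hybridisation on Agilent arrays. Per the file headers and the submitters' processing notes, the 1-colour images were quantified by Agilent Feature Extraction, version 10.7.3.1, and probe positions are on mm9. The values used are the deposited processed signals, intensity values on a linear scale after the scanner software's background subtraction, not scaled between arrays. The value table that the authors deposited repeats these intensity values, with column medians from 41.7 to 57.5. Against the scanner files, the log2 difference had a median of 0 on each array and at least 99.9% of probes lay within 0.1 log2 units. Its scale is linear and it is not centred.

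Each array held 59305 noncontrol spots for 55681 probes. Outlier spots, 146 to 216 on each array, were removed, 0 were saturated, and spots of a probe were averaged. Values are log2 signals minus the array's 75th percentile, which was 518.2 to 736.1 units. A probe entered if well above background on at least 3 of 4 arrays of a genotype, which left 23830 genes, each by its brightest probe. Between 55.9% and 61.5% of probes were well above background, and the number of arrays limits the precision. Names come from the array. By accession, 26413 probes matched RefSeq (GRCm38.p6, names only), which changed 3093 symbols.

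The genotype comparison used lmFit and eBayes of limma 3.58.1 under R 4.3.3 (two-sided, Benjamini-Hochberg over all genes, threshold 0.05). The fit was tested on simulated data, with changes given to genes picked at random from all genes tested. It recovered 63% of 100 changes of 1 log2 unit and 85% of 100 changes of 2 units, with 5 false calls. These shares do not apply to genes as variable between arrays as the slow-twitch genes. Tables and figures were made with Python 3.11.15, pandas 2.3.3, numpy 2.4.6 and matplotlib 3.10.9. The members, the gene lists, the 2 arrays set apart and the alternatives were chosen with earlier results of these data known. Named genes are the members, up to 4 genes of each list by smallest p or by highest and lowest difference, and the 12 tested genes with the highest Pearson correlation with the members' mean, leaving out clone, predicted and chromosome region names. Genes named for their values on single arrays, and the CArG box, were chosen after these were seen. Nothing in the labels says that the mice were littermates, and the replicate numbers were not taken as pairs.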

Additional observations from a re-analysis of the deposited data

Results flagged for a closer look

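For each of the 6 slow-twitch genes, array miR-126-/- 1 lay far from the other 3 miR-126-/- arrays. Its gap to the nearest of them, as a share of the range of the 4, was 0.929 for Tnni1, 0.922 for Myl3, 0.86 for Tnnc1, 0.858 for Myl2, 0.837 for Myh7 and 0.831 for Tnnt1, beyond Dixon's critical value for 4 samples. Chance gives such a gap in about 1 in 20 groups chosen without regard to their values. These genes were chosen for their values by array, and all 6 gaps fall on the same array, so the shares describe what the choice had fixed and are no test.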

How the results depend on the processing

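Of 120 recomputed genotype differences of the 6 slow-twitch genes (20 alternatives each), 112 kept their direction and 0 passed the threshold (lowest adjusted p 0.615, Myh7 with array weights). The 8 that reversed came from leaving out miR-126-/- 1, alone or with miR-126+/+ 2. Changes of filter, the handling of a gene's probes, the intensity trend and the replicate block left each difference at its main value. Each gene had a single probe above background on every array and the design was balanced, so the direction under those alternatives was fixed in advance. Leaving out single arrays gave -0.36 to 1.03 for Tnnt1, -0.47 to 0.998 for Tnni1, -0.23 to 1.01 for Myl2, -0.10 to 0.95 for Tnnc1, -0.060 to 1.32 for Myl3 and 0.03 to 0.71 for Myh7, with the lowest value without miR-126-/- 1 each time. Without miR-126-/- 1 and miR-126+/+ 2 together, Tnnt1 (-0.16), Tnni1 (-0.20) and Myl2 (-0.045) reversed, and the median was -0.00019. The median otherwise lay between 0.46 (normexp) and 0.61, and between -0.17 and 0.94 without single arrays. With normexp the differences were 0.32 for Myh7 and 0.67 for Myl3, and the smaller excesses on miR-126-/- 1 are given above.

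The count of genes called, 23 of 23830, was 11 with quantile normalization, 12 with the deposited table, 9 with no filter, 6 with probes above background on every array, 10 with the mean of a gene's probes, 12 with every probe on its own and 73 with array weights. Without single arrays it ran from 0 (miR-126-/- 2, with 1900 genes in limma at an unadjusted p under 0.05) to 59 (miR-126+/+ 4). It was 15 without miR-126-/- 4, 4 without miR-126-/- 3, 5 without miR-126-/- 1, 11 without miR-126+/+ 3, 3 without miR-126+/+ 2 and 6 without miR-126+/+ 1, and limma gave 0 without miR-126-/- 1 and miR-126+/+ 2 (2047 genes at an unadjusted p under 0.05). With the replicate number as a block, limma called 0 (2196 genes at an unadjusted p under 0.05). The numbers share no known source, and same-numbered arrays correlated in their deviations by 0.20, -0.28, -0.04 and 0.0073 for numbers 1 to 4. None of the 4 miR-126-/- arrays correlated best with its own number. The cause of these changes was not tested. The size of the excess on miR-126-/- 1 depends on the background correction for all of the 6 genes. It changed least for Tnnt1, from 12.6-fold to 11.4-fold with normexp.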
